A study of Drosophila melanogaster with 3 samples.

Results

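Among 10 Drosophila genes for mesoderm specification or myoblast fusion, tagged CG5180 peaked most strongly at the fusion receptor genes rst, kirre and sns. At bap and lmd there was no peak in the irreproducible discovery rate (IDR) list of 5400. The 10 genes are tin, bap, bin, Mef2, lmd, nau, sns, kirre, rst and mbc, of 13945 protein-coding genes on the 6 main chromosome arms. They were chosen by their known roles and with their peak values from these data in view, so every value is a description and none was tested. A peak was counted for a gene when its summit, the peak's point of highest signal, lay in the gene body or within 5 kb of it.

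Chromatin immunoprecipitation followed by sequencing (ChIP-seq) maps the DNA that comes down with a protein. Here it was done with an anti-GFP antibody on whole embryos of mixed sex, 0 to 16 h old, from a stable transgenic fly line in which CG5180 carries eGFP at its C-terminal end. The 3 biological replicates form 1 group, all of the same line, and no library from untagged embryos was analysed here. The chromatin came from whole embryos, so a peak cannot be assigned to a cell type, and a strong signal in few cells and a weak one in many cannot be told apart.

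In the fly embryo, the transcription factor Twist sets up the mesoderm, and the NK homeodomain factor encoded by tin then directs its dorsal part towards heart and visceral muscle. The genes bap and bin act below tin in the visceral mesoderm, which forms the gut musculature. Body wall muscles arise when founder cells, which carry the receptors encoded by kirre or rst, attract fusion-competent myoblasts, which carry the receptor encoded by sns, and the cells then fuse.

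The peaks come from 5 lists made by the authors on dm6. The irreproducible discovery rate (IDR) measures how alike peaks rank across lists. The list of IDR peaks holds 5400, and the pooled list and each of the 3 replicate lists hold 30000. At each member with an IDR summit, the best rank and signal value were the same in the IDR and pooled lists. At bap and lmd the strongest pooled-list peaks had 100.9 and 46.61, below the weakest IDR peak at 182. The signal value of a peak is the authors' own score without a fixed range. It is compared only within a list, and rank 1 is the strongest peak of a list. Read depth is unknown, so no interval for counting error can be given.

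Of the 10 genes, 8 had an IDR summit in the window, against 40.5% of all protein-coding genes. The windows differed widely in length, from 11570 bp at bap to 404149 bp at kirre, and longer windows hold a summit more often. The length classes used next were set with these lengths and counts already seen. Among windows under 20 kb, 3 of the 5 members had a summit, against 36.2% of all genes with such windows. From 20 to 40 kb both members had one, rst and mbc, against 64.3%, and over 40 kb all 3 did, Mef2, sns and kirre, against 70.9%. The 10 windows held 45 distinct IDR summits in 39 separate regions, and 5 of these summits lie in both the kirre and the rst window. This is 0.722 summits per 10 kb of window, against 0.403 over the 6 arms, which also hold sequence outside gene windows. The kirre window makes up 404149 of the 623320 bp. By member the density ran from 0 at bap and lmd and 0.296 at sns to 1.93 at nau. The median signal value of the 45 summits was 345, against 313 for all IDR peaks. In the longer pooled list all 10 members had a summit in the window, against 70.9% of all genes.

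**Figure D1:**
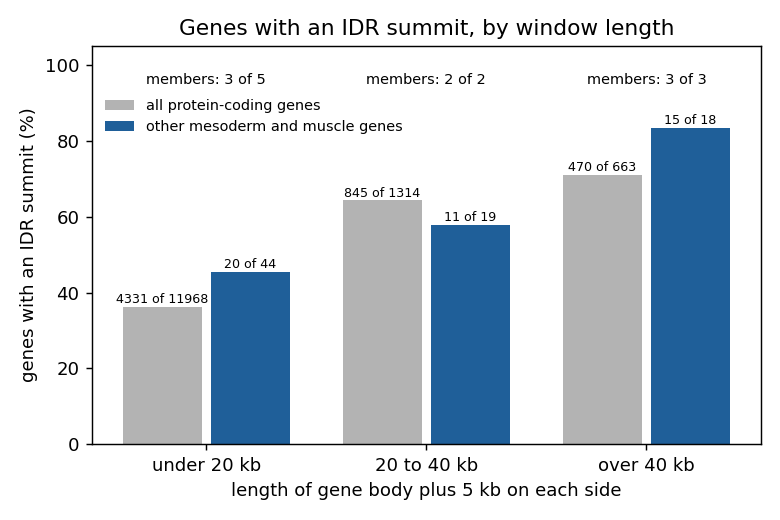
Percentage of genes with an IDR summit in the gene body or within 5 kb (y axis, from 0), by the length of that window (x axis). Grey bars show all protein-coding genes and blue bars 81 other mesoderm and muscle genes, with counts above the bars and the members' counts on top. The grey share climbs from 36.2% to 70.9% with window length.

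The specification factors had moderate peaks upstream of tin and bin and none at bap. The peak just upstream of tin (chr3R:21378660-21378888) has its summit 198 bp before the only annotated transcription start site (TSS), with a signal value of 648.8 and rank 1054 of the IDR list. Its signal values were 292.4, 209.0 and 149.3 in replicates 1, 2 and 3, and its ranks there were 932, 1323 and 1229. A second summit 2505 bp before the tin start was stronger, at 903.1 and rank 701, with ranks of 696, 831 and 684 in the replicates. This second summit lies inside an intron of mod(mdg4), 929 bp after a TSS of that gene, which encodes chromatin and insulator proteins. The gene bin, a FoxF-type forkhead factor of the visceral mesoderm, had a pair of summits 1345 and 1146 bp before its TSS, with signal values of 933.4 and 699.6. The stronger of the pair ranked 670, 665 and 805 in replicates 1, 2 and 3. The weaker one ranked 832, 1461 and 2485, so it was placed lower in replicate 3 than in the others. No other protein-coding TSS is nearer to either bin summit.

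The gene bap, an NK homeodomain factor that lies 6910 bp past the end of tin, had only pooled-list peaks in its window. The stronger of these 2 peaks had a signal value of 100.9 and rank 11369 of the 30000 in the pooled list, well below the end of the IDR list. The best ranks in the bap window were 11601, 20182 and 11426 in replicates 1, 2 and 3. The nearest IDR summit outside the window was 10101 bp from the bap gene body and is the tin promoter summit.

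The muscle differentiation factors differed from one another, with 8 summits at Mef2, 3 at nau and none at lmd. Mef2 encodes the MADS-box factor that switches on muscle genes in all muscle types, and its gene body spans 45363 bp with 3 TSSs. Its strongest summit lies 1068 bp before the first TSS, with a signal value of 2083 and rank 309. This summit ranked 321, 338 and 303 in replicates 1, 2 and 3, a narrow range. It is 152 bp from a TSS of Pal1 and 194 bp from one of Pdrg1, so within 250 bp it is a promoter peak of these neighbouring genes and not of Mef2. The next strongest, at 1698 and rank 356, lies 2517 bp past the 3' end of Mef2 and 86 bp from the TSS of Etf-QO, a mitochondrial electron-transfer enzyme. The other 6 summits lie within Mef2 and are weaker, with signal values from 190.5 to 411.3. The weakest of them is 109 bp after a Mef2 TSS and ranked 7746, 3391 and 3054 in the replicates, thus outside the strongest 5400 of replicate 1.

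The gene nau encodes the only MyoD-family factor of the fly. Its strongest summit lay 4598 bp upstream of the TSS, with a signal value of 473.6 and ranks of 1466, 1693 and 2102 in replicates 1, 2 and 3. It and a weaker summit beside it, at 220.7, are 376 and 167 bp from a TSS of CG10365. Replicate 2 has a single summit for this pair. The third, 3074 bp past the gene's end, had 184.1 and rank 5338, and it ranked among the strongest 5400 peaks in 1 replicate. No IDR summit fell within the nau gene body. The gene lmd, a Gli-type zinc finger factor needed by fusion-competent myoblasts, had a single pooled peak in its window, with a signal value of 46.61 and rank 29240 of 30000. Replicate 1 had a peak of rank 24643 in the lmd window, replicate 3 one of rank 27086 and replicate 2 had no peak there.

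**Figure D2:**
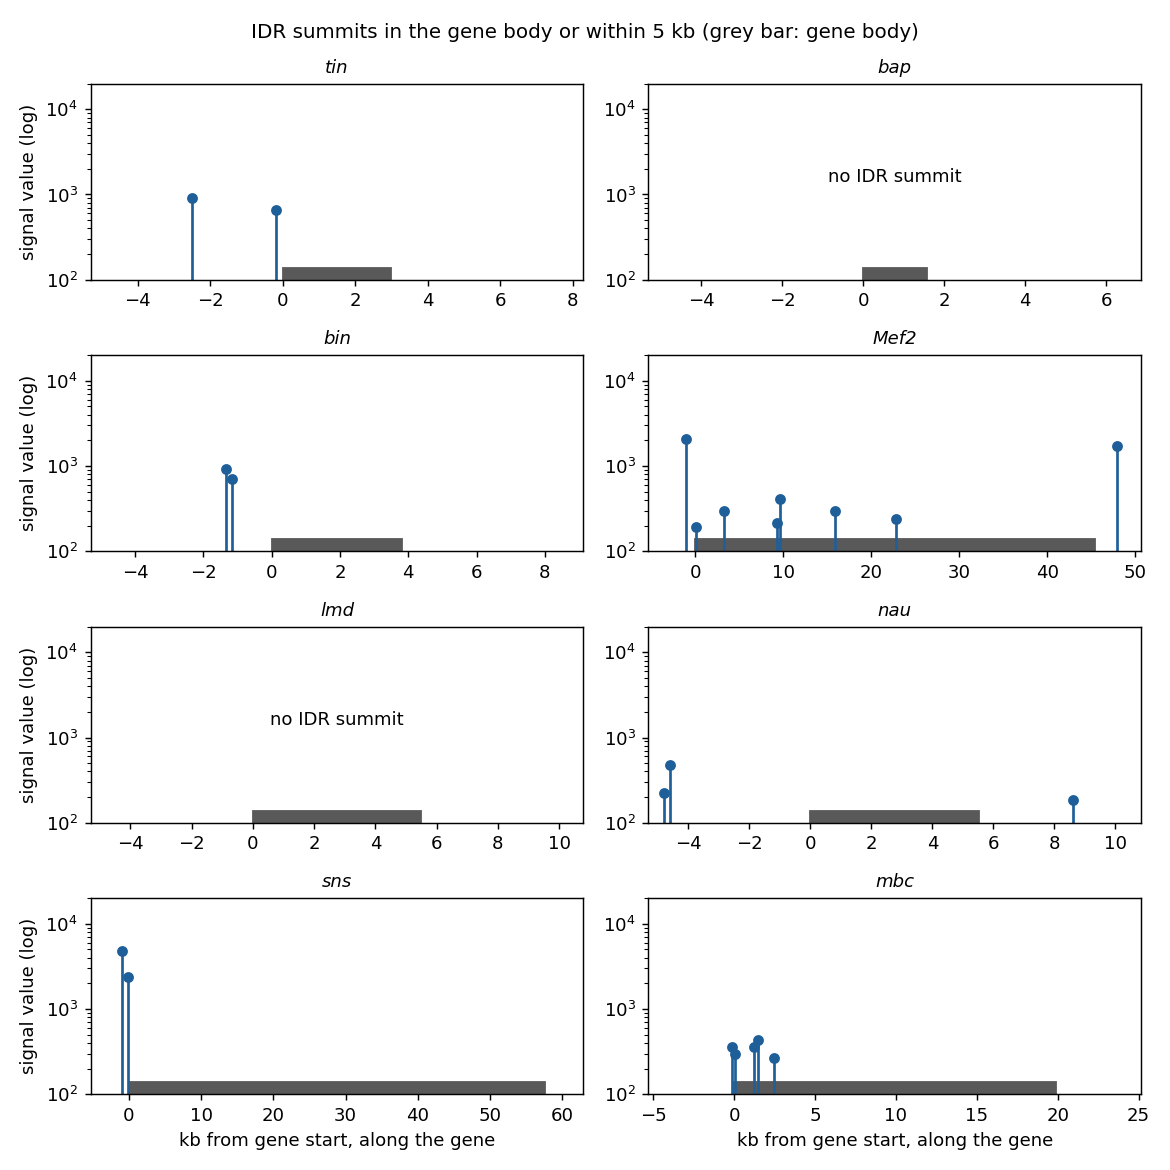
Signal value of each IDR summit on a log axis (y) against its distance in kb from the gene start, along the direction of transcription (x), for 8 members, with the gene body as a grey bar. The summits of tin, bin and sns stand upstream of the start, those of mbc cluster at the start and in the first kilobases, and bap and lmd have no summit.

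The fusion receptors, all immunoglobulin-type membrane proteins, carried all 5 of the strongest member summits. The summit at the rst promoter (chrX:2973245-2974605) lies 24 bp before the only rst TSS. It had a signal value of 16178 and rank 57 in the IDR list, and it was number 39 of the 1676 IDR summits at promoters. Its signal values were 7042, 5337 and 3909 in replicates 1, 2 and 3, with ranks of 55, 59 and 54. The place in the list thus hardly moved between replicates, although the scores, which are not scaled between lists, did.

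In the gene models used here kirre spans 394149 bp and contains 21 whole protein-coding genes, rst among them on the opposite strand. Of the 23 IDR summits in its window, 18 were outside the rst window, and 18 of the 23 lay in introns. For a window of this length the number alone says little, and 3 protein-coding genes, kirre included, had 23 or more. A pair of summits in a kirre intron, 36966 and 38806 bp after the kirre TSS nearest to them, stood far above the others of the 18 summits outside the rst window. The first (chrX:3025548-3026510) had a signal value of 6860 and ranks of 130, 145 and 136 in replicates 1, 2 and 3. The second (chrX:3027266-3028349) had 5159 and ranks of 159, 170 and 169. Both are nearer to a TSS of kirre than to that of any other protein-coding gene, but over long distances. A weaker summit 42913 bp after the same kirre TSS is nearest to a TSS of CG4116, 35518 bp away. Nearness alone therefore does not assign the pair to a gene. The summit 131 bp before a kirre TSS was weaker than the pair, at 348.4 and rank 2352. One 2326 bp upstream had 656.8 and rank 1038. Other summits in the kirre window lie close to other genes, such as one of 559.9 that is 190 bp from a TSS of Syx4, a syntaxin of membrane traffic. In the rst window, the other 4 summits ranged only from 185.9 to 214.2, and they are also counted for kirre.

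**Figure D3:**
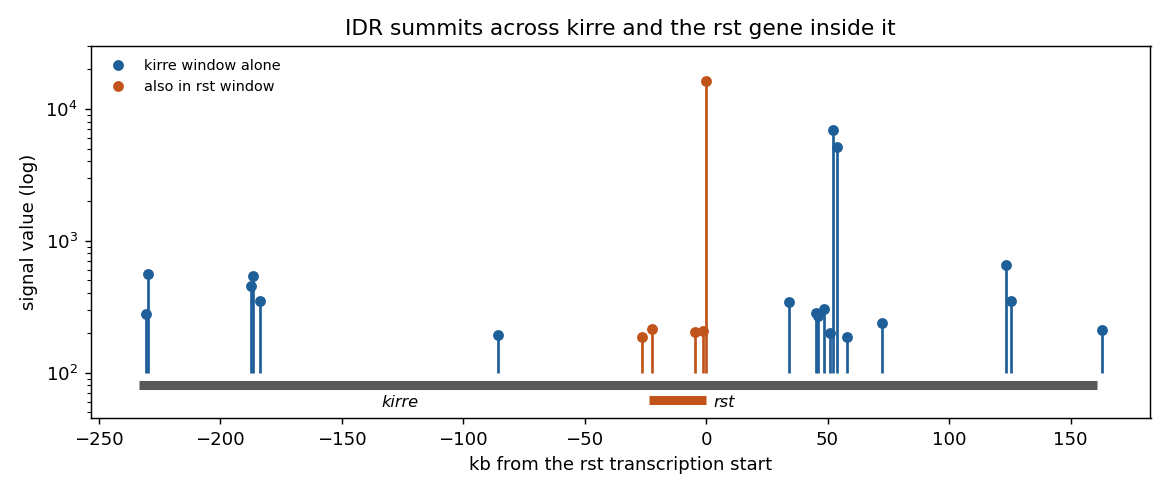
Signal value of the 23 IDR summits in the kirre window on a log axis (y) against distance in kb from the rst transcription start (x). Orange points, 5 in number, are also in the rst window, bars below show both gene bodies, and the rst promoter summit at 16178 and the intronic pair at 6860 and 5159 stand above all others.

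The gene sns, whose nephrin-like product is the receptor of the fusion-competent myoblast, had 2 summits in a window of 67603 bp, both just upstream. The stronger lies 916 bp before the only TSS, with a signal value of 4745 and rank 169, and ranks of 172, 179 and 177 in replicates 1, 2 and 3. The other lies 89 bp before it, with 2347 and rank 281, and ranks of 298, 295 and 283. No other protein-coding TSS is as near to either. In the 57603 bp of the gene body there was no IDR summit, and the strongest pooled-list peak in the window outside the IDR list had 156.2.

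The fusion effector mbc, a DOCK-type activator of the GTPase Rac that acts downstream of the receptors, had 5 summits of nearly equal and modest strength. Their signal values ran from 266.6 to 436.2, the last of these 1481 bp after the TSS, with ranks of 2185, 1429 and 1928 in replicates 1, 2 and 3. The summit 136 bp before the mbc TSS, at 358.7, is only 8 bp from the TSS of Nup98-96, a nuclear pore gene, and the next, 70 bp after the mbc TSS, had 300.0. The other 3 lie 1200, 1481 and 2434 bp into mbc, in introns. All 5 matched one of the strongest 5400 peaks in each replicate, but in replicate 3 a single summit served for both promoter summits.

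Counted by distance, 6 of the 10 genes (tin, Mef2, sns, kirre, rst and mbc) had an IDR summit within 250 bp of a TSS of their own, against 12.0% of all protein-coding genes. Of the 45 summits, 11 (24.4%) lay within 250 bp of some protein-coding TSS, against 31.0% of all IDR summits. In introns lay 26 (57.8%), against 42.5%. Of these 26, 18 are in the long kirre window, so the intronic share rests mainly on that gene. Only 22 of the 45 summits lie outside the kirre and rst windows. For 21 of the 45 summits the nearest protein-coding TSS was of a gene other than the member for which the summit was counted. Summits in both the kirre and rst windows were counted under kirre here, so the 21 include some nearest to rst, itself a member.

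The 45 summits were found in the replicates about as often as IDR summits in general. A summit within 200 bp was present in all 3 whole replicate lists for every one of the 45, and 97.5% of all IDR summits had this. Among the strongest 5400 peaks of each replicate, 32 of the 45 (71.1%) were found in all 3, against 68.7% of all IDR summits. Replicate 1 held 42 of them, replicate 2 held 35 and replicate 3 held 39. The 6 strongest summits, at rst, kirre, sns and Mef2, kept nearly the same rank in all 3 replicates, while ranks spread more at weaker summits. The replicate lists were used in making the IDR list, so agreement is built in.

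**Figure D4:**
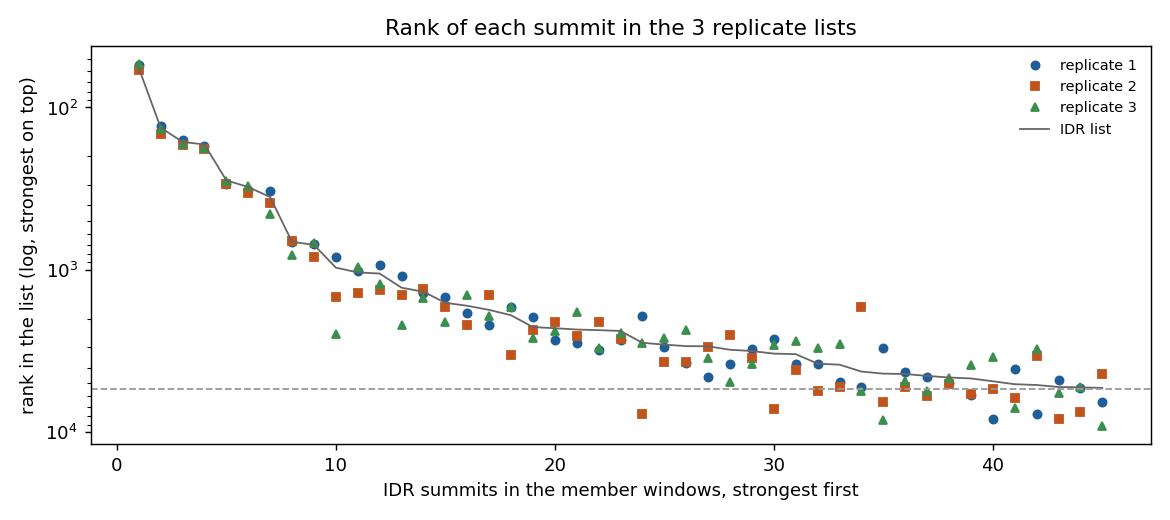
Rank in each replicate list (y, log axis, strongest on top) of the 45 IDR summits, ordered by IDR rank (x), with the IDR rank as a line and rank 5400 dashed. The 6 strongest summits have nearly the same rank in all 3 replicates, and the points spread more widely to the right.

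At the edges of the rule, the outermost summit inside a window was that 4807 bp upstream of nau, and the nearest one outside any member's window was 5431 bp from nau, with a signal value of 586.6. The weakest member summit in the IDR list had 184.1, and the strongest pooled-list peak just outside it, in the kirre window, had 173.1 and rank 5780.

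The DNA under the 3 strongest summits, at rst and in the kirre intron, is shown because it shares 2 words of 6 bases, AACATG and TCGAAC, read on either strand. The words were not planned and were chosen from these data. The first was noticed by reading the windows of the strongest member summits, and 8 spellings around it were then counted. All 8192 words of 7 bases were next counted, and the 641 found in more than 25 of the strongest 540 pooled-list windows were ranked by excess over the summits ranked below 5400. Of the 25 words with the greatest excess, 3 hold AACATG, 8 hold TCGAAC and 14 hold neither, the first in order being ATGTTCG. Counts of both words at these summits therefore come from the data that chose them and are no test. Each window is 201 bp centred on the summit, from the RefSeq genome sequence of release 6 (dm6), plus strand, and capitals mark every match to either word, some of them overlapping.

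rst promoter, chrX:2973758-2973958: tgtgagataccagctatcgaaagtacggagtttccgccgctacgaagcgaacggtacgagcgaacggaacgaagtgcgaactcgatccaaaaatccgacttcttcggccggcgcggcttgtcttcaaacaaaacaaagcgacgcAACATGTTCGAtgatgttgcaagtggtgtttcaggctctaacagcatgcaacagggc
kirre intron, first of the pair, chrX:3025917-3026117: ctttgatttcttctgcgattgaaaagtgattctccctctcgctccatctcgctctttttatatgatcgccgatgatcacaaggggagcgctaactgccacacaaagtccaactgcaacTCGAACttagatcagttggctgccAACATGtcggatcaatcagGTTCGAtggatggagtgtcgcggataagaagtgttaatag
kirre intron, second of the pair, chrX:3027757-3027957: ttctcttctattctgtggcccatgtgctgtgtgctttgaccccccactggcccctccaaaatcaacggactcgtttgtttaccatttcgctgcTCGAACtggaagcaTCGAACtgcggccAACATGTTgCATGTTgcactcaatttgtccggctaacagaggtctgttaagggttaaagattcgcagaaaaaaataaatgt

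The rst window holds AACATG and TCGAAC overlapping in 1 run, and both kirre windows hold both words. For comparison, windows at weaker summits of 4 other members are given, of which that at bin has 1 match and the others none. At tin and bin the window shown is that of the weaker of 2 summits. The stronger ones, at 903.1 and 933.4, hold neither word.

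tin promoter, chr3R:21378679-21378879: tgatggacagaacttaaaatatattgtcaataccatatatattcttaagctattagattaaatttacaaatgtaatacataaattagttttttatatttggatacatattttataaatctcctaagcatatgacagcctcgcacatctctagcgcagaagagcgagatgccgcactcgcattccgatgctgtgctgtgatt
bin upstream, chr3L:6989376-6989576: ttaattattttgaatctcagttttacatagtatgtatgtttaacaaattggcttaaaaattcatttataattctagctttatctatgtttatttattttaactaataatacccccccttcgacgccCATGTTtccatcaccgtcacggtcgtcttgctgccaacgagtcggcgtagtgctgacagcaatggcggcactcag
nau upstream, chr3R:23722855-23723055: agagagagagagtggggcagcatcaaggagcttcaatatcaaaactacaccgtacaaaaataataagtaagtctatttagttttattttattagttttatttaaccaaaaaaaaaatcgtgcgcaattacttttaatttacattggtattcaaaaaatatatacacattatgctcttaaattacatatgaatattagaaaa
mbc intron, chr3R:23783146-23783346: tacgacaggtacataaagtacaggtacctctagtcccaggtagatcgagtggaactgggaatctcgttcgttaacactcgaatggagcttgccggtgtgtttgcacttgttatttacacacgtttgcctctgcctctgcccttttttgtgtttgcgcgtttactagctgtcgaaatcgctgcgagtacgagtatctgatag

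The stronger sns summit also holds TCGAAC, in 2 places, the nearer of them 3 bp from the summit. The 4 strongest member summits therefore all have TCGAAC, and of the 41 others only 1 does, the one 265 bp from the TSS of CG32795 in the kirre window. Of the 7 member summits ranked 1 to 540, 4 hold either word. Those at sns (2347) and near Mef2 (2083 and 1698) hold neither. Over the 45 windows AACATG occurred in 8 (17.8%) and TCGAAC in 5 (11.1%), against 13.2% and 15.3% of all IDR summits. The shares differed with the strength of the peak. In the pooled list AACATG was found at 52.0% of the strongest 100 summits, 21.4% of those ranked 101 to 540, 11.7% of those ranked 541 to 5400 and 10.6% of the rest. TCGAAC was found at 74.0%, 33.0%, 12.5% and 8.43% of the same classes. Windows tiled over the 6 arms gave 9.37% and 7.09%. Windows 600 bp to the right of the strongest 540 summits held the first word in 54 of 540 and the second in 37 of 540, against 146 and 219 of 540 at the summits themselves. These rank classes and the offset, taken on 1 side only, were also chosen after the data were seen.

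**Figure D5:**
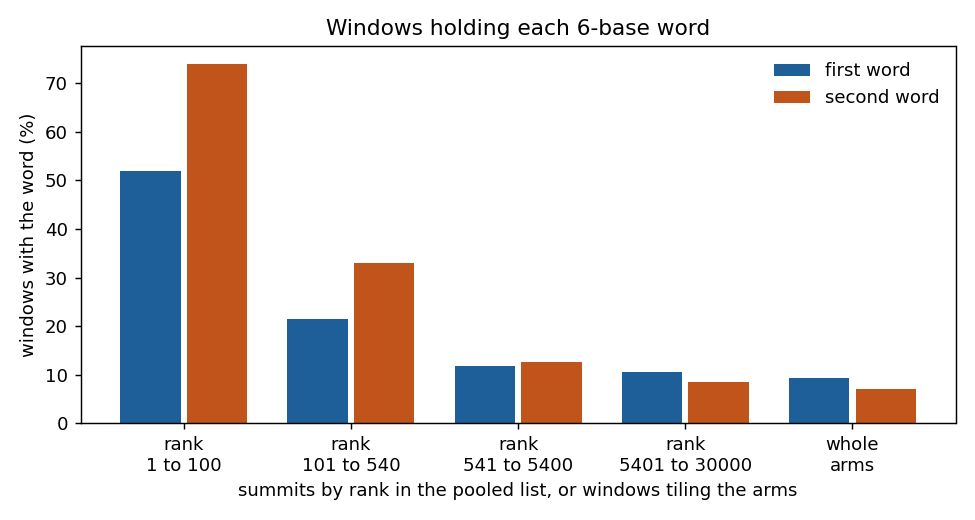
Percentage of 201 bp windows holding each word on either strand (y, from 0), for pooled-list summits by rank and for windows tiling the arms (x). The first word is AACATG and the second TCGAAC, and both are most frequent at the strongest 100 summits, at 52.0% and 74.0%.

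Known sequence patterns of mesodermal factors, and of more general factors such as Zelda and GAGA factor, were looked for in the same 45 windows, on both strands. The general E-box CANNTG, the core recognised by Twist and MyoD-type factors, was in 35 (77.8%), against 63.2% of all IDR windows and 63.1% of windows over the arms. Of its specific forms, CATATG was in 6 (13.3%), against 7.13% of all IDR windows, and CACATG in 8 (17.8%), against 9.52%. CAGCTG was in 2 (4.44%), against 9.33%, and CAGGTG in 1 (2.22%), against 5.31%. All 4 of these forms are also counted under CANNTG. The Tinman site TCAAGTG was in 2 (4.44%), against 3.07%, and its form TTAAGTG in 2 (4.44%), against 4.02%. The forkhead site GTAAACA was in 4 (8.89%), against 7.24%, and the GAGA factor site GAGAGAG in 5 (11.1%), against 6.74%. The Zelda site CAGGTAG was in 1 (2.22%), against 1.06%. The GATA factor site AGATAAG was in 0 of 45, against 2.74%. The upper limit of 6.67% for 0 of 45, which is 3 in 45, takes the windows as independent. Neighbouring summits at chosen genes need not be so. One CATATG lies in the tin promoter window and another in the nau window printed above, and the nau window also begins with a GAGAGAG run.

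Other genes of mesoderm and muscle were counted in the same way, in 6 lists with 81 genes, of which 46 (56.8%) had an IDR summit in the window, against the 40.5% of all genes. Their windows are also long. Under 20 kb 20 of 44 had a summit (45.5%), from 20 to 40 kb 11 of 19 (57.9%) and over 40 kb 15 of 18 (83.3%), beside the shares of 36.2%, 64.3% and 70.9% for all genes. A summit that falls in the windows of neighbouring genes is counted for each.

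Of early mesoderm and FGF signalling genes 8 of 9 (88.9%) had a summit, against 40.5% of all protein-coding genes. Windows in this list ran from 11668 bp at sna to 72952 bp at twi, and over 40 kb 70.9% of all genes had one. The strongest summits were at pyr (31602) and ths (11390), which encode the FGF ligands of the mesoderm. Next came those in the windows of twi (576.2) and zfh1 (522.3), a zinc finger homeodomain factor. No IDR summit lay within 250 bp of a TSS of twi. The heart and dorsal mesoderm list had 9 of 11 (81.8%). It was led by the GATA cofactor gene ush (4213) and the ladybird homeobox genes lbl (841.9) and lbe (654.4), with the T-box gene H15 next (448.2). In the visceral mesoderm list 5 of 8 (62.5%) had one. The strongest were at the forkhead gene slp2 (819.8), the T-box gene org-1 (672.0), the adhesion gene Fas3 (516.2) and jeb (460.0), the ligand of the receptor Alk.

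Of genes for muscle founder identity 6 of 13 (46.2%) had a summit. They were led by the Iroquois genes ara (8025) and caup (3315), with the Pax gene Poxm (650.4) and the LIM homeobox gene tup (486.7) after them. Among other fusion genes 8 of 19 (42.1%) had one. The strongest by far was at hbs (10934, rank 94), the paralogue of sns in the fusion-competent cell, followed by the kinase gene Pak3 (854.9), the Arf exchange factor gene siz (803.9) and Hem (414.0), a subunit of the actin-regulating WAVE complex. The contractile list had 10 of 21 (47.6%). Its strongest were at Msp300 (7623), a nuclear envelope spectrin-like protein of muscle, the tropomyosin gene Tm1 (1016), Mlp84B (861.8) and the Z-disc gene Zasp52 (803.7). The shares of the founder identity, fusion and contractile lists lie near the 40.5% of all protein-coding genes. The gene hbs belongs to the same receptor family as rst, kirre and sns. The strongest summits of these ranked 57 at rst, 133 in the kirre intron and 169 at sns. These genes were chosen with peak values in view. How many of all genes have a summit ranked as high was not counted.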

How the data were processed

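ChIP-seq peak lists of 3 replicates of CG5180-eGFP embryos were used. Per the deposited README notes, a replicate list came from the dm6 alignments of that replicate plus another file not described there, the pooled list from the alignments of all 3 with that same other file, and the IDR list from those 4 lists. Aligner, peak caller, IDR threshold and versions: not given in the sources used here. Signal values are a score as the authors deposited it. The deposited −log10 q-value was not used for any result. Lists on dm3 were not used.

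Gene models were those of Ensembl release 115, and positions are 1-based on dm6. Summits were set against genes in Python 3.11.15 with pandas 2.3.3, with windows of 5 kb, promoters of 250 bp, replicate matches within 200 bp and sequence windows of 100 bp on each side. A summit was called promoter first, then UTR, coding or other exon, then intron, and otherwise intergenic. Counting was tested on simulated data with 200 planted genes.

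The members, lists, patterns and settings were chosen with earlier results of these data known, and the words AACATG and TCGAAC were found in these peaks after 8 spellings and 8192 words of 7 bases had been counted. In each list the up to 4 genes with the largest signal value are named. Of 81 list symbols, 3 were matched by synonym. With 1 group no test was made. The labels call the samples biological replicates and say no more of how they were collected.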

Additional observations from a re-analysis of the deposited data

How the results depend on the processing

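The 11 counts were recomputed under 93 alternatives, and 79 of these values were within 1.5 times the reported one. With the gene body alone, 4 members had an IDR summit (13.0% of all genes), as did 2 visceral mesoderm, 2 founder identity, 5 fusion and 4 contractile genes. The strongest 2700 IDR peaks left 23 member summits, 5 of 19 fusion genes and 6 of 21 contractile genes, beside 27.0% of all genes. The whole pooled list gave 253 member summits, and 8 visceral mesoderm, 11 founder identity, 16 fusion and 19 contractile genes; 70.9% of all genes had a peak there. Within 100 bp of a TSS, a distance for which the share of all genes was not counted, 3 members had an IDR summit. These changes follow from a shorter window or from fewer or more peaks.

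Leaving out each replicate in turn, which kept IDR peaks found among the strongest of both others, gave 8 members each time, 33 to 37 member summits, 5 to 6 members with a summit at a TSS and 33 to 37 summits found in both others. List counts were then 8 for early mesoderm, 8 for heart and 4 to 5 for visceral mesoderm. They were 6 for founder identity, 6 to 7 for fusion and 8 to 9 for contractile genes. The shares of all genes with a replicate left out were not counted. The 10 member summits with either word became 8 within 50 bp and 14 within 200 bp of the summit, alternatives chosen after seeing the data. No paired analysis was possible because there is 1 group. Without read counts or a control library, how far depth limits these lists was not tested.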
